A study of Mus musculus with 6 samples.

Results

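YAP, its DNA-binding partner TEAD1, and genes of contractile and cortical actin were compared between microglia with and without the mechanically gated cation channel Piezo1. The 8 genes were Yap1, Tead1, Cyr61, Fhl2, Acta2, Myl9, Cttn and Myh14, taken by name from a table of 466 genes that the authors had deposited as differing between the groups, and all 8 were found there. Every gene there had a log2 fold change above 1 or below -1 and a p under 0.05 by the authors' deposited table, so a difference between the group means was a condition for being listed and is not a finding about these genes. Microglia are the macrophages that reside in brain tissue, and here they were prepared from adult male C57BL/6N mice that carried 5×FAD, a set of transgenes that models Alzheimer's disease amyloid. The 3 knockout samples (Piezo1MGKO; FAD) came from mice with the Cx3cr1CreER-EYFP allele, floxed Piezo1 on both alleles and 5×FAD. The 3 control samples (Piezo1fl/fl; FAD) came from littermates with floxed Piezo1 and 5×FAD, for which no Cre allele was named. Both groups received tamoxifen at 20 mg/kg by intraperitoneal injection on 4 days from an age of 4.5 weeks, and their age at isolation is unknown here. The Cre is driven from the Cx3cr1 locus, which is active in microglia and also in other macrophages. Loss of Piezo1 and presence of this Cre allele cannot be told apart in any value below. The number of mice behind each sample was not given, and the tests measure the spread between these 6 samples.

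Poly(A) RNA was sequenced, and the values are normalised read counts, which are gene counts divided by a size factor for each library. The size factors lay between 0.979 and 1.03, so 1 normalised read was close to 1 sequenced read. Library depth is unknown here, since the table holds selected genes only. Piezo1 is not in the table and was not analysed here, and it could not check the genotype labels. Of 18 microglial marker genes, Cx3cr1 alone was in the table, at 27906 to 35698 normalised reads in the knockout and 58569 to 79363 in controls. The other 17, such as P2ry12 and Tmem119, were not analysed here, so the cell type label rests on Cx3cr1 only. The knockout group carries its Cre allele at the Cx3cr1 locus. For Cx3cr1, an effect of that allele and a difference in microglial content cannot be told apart.

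YAP is a transcriptional co-activator without a DNA-binding domain of its own. The Hippo kinases hold it in the cytoplasm, whereas stretched, adherent or contractile cells let it enter the nucleus and bind TEAD factors at sites with the core CATTCC. Actin assembly also feeds a second route, in which MRTF leaves monomeric actin and joins serum response factor (SRF) on CArG boxes of contractile genes. In brain, YAP and TEAD1 are best known from astrocytes, ependyma, meningeal and vascular cells, and smooth muscle actin from the mural cells of vessels. Blood-derived cells are known for the cortactin relative HS1, the product of Hcls1, in their cell cortex.

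Both routes are known for short DNA sites before the start of their targets, so the stretches before the RefSeq starts of 4 of the genes are shown, with matches in capitals. They are from GRCm38.p6, are written 5′ to 3′ on the strand of the gene, and end just before the annotated start, except that of Myl9, which ends where its GENCODE M21 exon begins. Capitals mark the TEAD core (CATTCC, or GGAATG on the other strand) or an exact SRF CArG box.
Cyr61, chr3:145649986-145650235, minus strand: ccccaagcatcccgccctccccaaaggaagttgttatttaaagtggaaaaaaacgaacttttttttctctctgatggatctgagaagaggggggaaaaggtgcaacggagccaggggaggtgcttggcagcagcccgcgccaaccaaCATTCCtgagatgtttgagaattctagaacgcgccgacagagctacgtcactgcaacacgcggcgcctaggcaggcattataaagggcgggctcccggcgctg
Yap1, chr9:8004597-8004846, minus strand: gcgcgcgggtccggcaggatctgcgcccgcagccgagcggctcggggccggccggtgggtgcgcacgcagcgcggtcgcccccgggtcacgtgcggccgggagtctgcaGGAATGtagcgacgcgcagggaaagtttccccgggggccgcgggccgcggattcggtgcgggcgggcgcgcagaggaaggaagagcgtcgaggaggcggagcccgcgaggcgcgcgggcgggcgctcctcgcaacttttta
Fhl2, the second of 2 RefSeq starts, chr1:43163962-43164211, minus strand: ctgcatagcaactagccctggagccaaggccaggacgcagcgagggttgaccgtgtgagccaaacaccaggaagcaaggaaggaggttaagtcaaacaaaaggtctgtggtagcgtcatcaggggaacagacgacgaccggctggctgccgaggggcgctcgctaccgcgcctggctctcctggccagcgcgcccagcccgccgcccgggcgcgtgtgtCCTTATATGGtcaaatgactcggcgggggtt
Myl9, chr2:156775214-156775419, plus strand: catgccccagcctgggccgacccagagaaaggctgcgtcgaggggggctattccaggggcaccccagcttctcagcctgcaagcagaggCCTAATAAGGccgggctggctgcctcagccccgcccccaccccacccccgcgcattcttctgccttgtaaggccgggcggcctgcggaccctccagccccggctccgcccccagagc

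RefSeq windows of 250 bases before the start were at hand for 6 of the 8 genes, and Tead1 and Cttn were not matched. The TEAD core was found in the windows of Cyr61 (103 to 98 bases before the start), Yap1 (141 to 136) and Acta2 (146 to 141). An exact CArG box was found in those of Myl9 (161 to 152 bases before the start) and Fhl2 (31 to 22 bases before the second start and 96 to 87 before the other). In the Acta2 window 217 of the 250 bases lay in GENCODE M21 exons of Acta2 itself, the TEAD match among them. In the window before the other Fhl2 start 223 bases lay in Fhl2 exons, that CArG match among them. The Myh14 window held neither. Only exact boxes were counted, so near matches such as ccctatatgg and ccttgtttgg in the Acta2 window were left out. Of 32851 RefSeq windows of the same length, 12.6% held the TEAD core and 1.47% an exact CArG box, both strands searched, and no overlap between the 2 kinds of match occurred in the windows of these genes. A match describes the sequence and does not show that a factor binds there. Cyr61 is a single annotated transcript of chromosome 3 (145646976 to 145649981, GRCm38), while Yap1 (chromosome 9, 7931999 to 8004596) has 10 annotated transcripts and Tead1 (chromosome 7, 112679318 to 112906807) has 15. Cttn (144435733 to 144471009) and Myh14 (44605803 to 44670843) lie on chromosome 7 as well, Fhl2 on chromosome 1 (43123074 to 43196984), Myl9 on chromosome 2 (156775420 to 156781658) and Acta2 on chromosome 19 (34241090 to 34255336). Yap1, Tead1, Fhl2, Cttn and Myh14 each overlap 1 or 2 other annotated genes, none of them in the table, and strand use in counting was not given in the sources used here, and a part of their reads may belong to the overlapping gene.

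All 8 genes had a lower mean in the knockout, and for each except Myh14 nearly all control reads lay in controls 2 and 3 together or in control 3 alone, control 1 holding 1.14% to 11.1% of the control sum of normalised reads against 20.1% for Myh14. Controls 2 and 3 both carried Yap1, Tead1, Cttn and Myh14 above every knockout sample. Cyr61 and Acta2 stood above every knockout sample only in control 3 or, for Acta2, also in control 1 by 1 read, and most reads of Fhl2 and Myl9 lay in control 3. In control 1, 5 of the 8 genes lay within the range of the knockout samples. The summed level of the 8 genes was 57.0, 49.0 and 37.4 normalised reads in knockouts 1, 2 and 3, and 76.5, 263 and 667 in controls 1, 2 and 3.

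**Figure D1:**
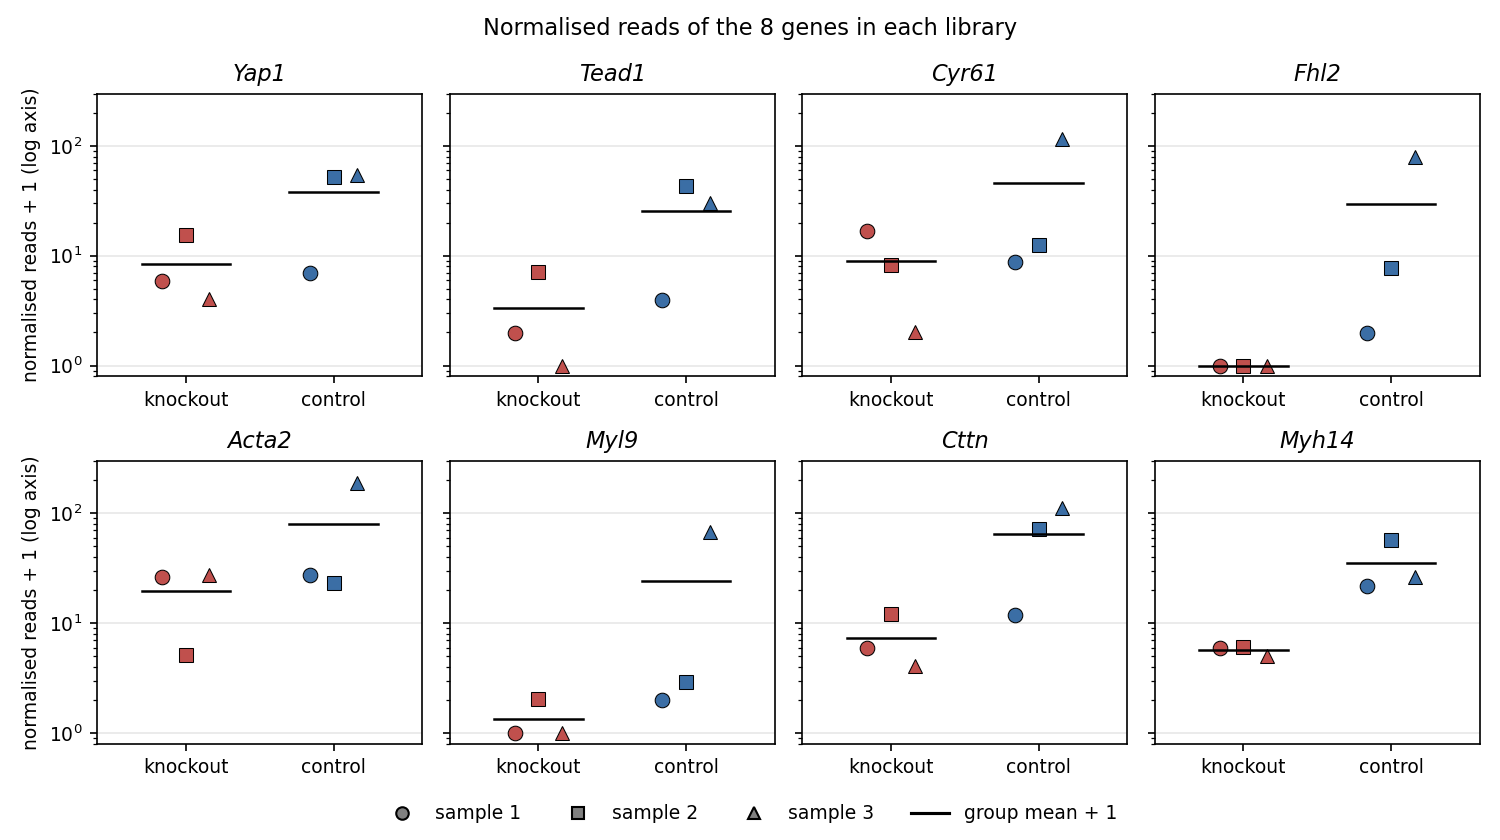
Normalised reads plus 1 on a log axis for each of the 8 genes in the 3 knockout and 3 control samples; symbols give the sample number and the line the group mean plus 1. Control 3 is the highest sample for 6 genes and control 2 for Tead1 and Myh14, while control 1 lies within the knockout range for Yap1, Tead1, Cyr61, Myl9 and Cttn.

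Yap1 encodes YAP itself. It had 4.92, 14.3 and 3.04 normalised reads in knockouts 1, 2 and 3, and 5.89, 51.4 and 53.8 in controls 1, 2 and 3. Control 1 fell inside the knockout range, below knockout 2, so the groups overlapped. The means were 7.42 ± 6.03 and 37.0 ± 27.0 (SD, n = 3 each), a 4.99-fold difference. Its log2 fold change was -2.32 and its adjusted p 0.819, both from the authors' deposited table.

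Tead1 encodes the TEAD factor through which YAP reaches DNA. It had 0.983, 6.13 and 0 normalised reads in the knockout and 2.94, 41.7 and 29.4 in controls, in sample order. It followed Yap1 in being high in controls 2 and 3 and near the knockout level in control 1, where it had 3 reads. The means were 2.37 ± 3.29 and 24.7 ± 19.8 (SD, n = 3 each), and the authors' deposited table gave a log2 fold change of -3.39 (adjusted p = 0.634).

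Cyr61, now named Ccn1, encodes a secreted matrix-associated protein and is a classical YAP and TEAD target. Knockouts 1, 2 and 3 had 15.7, 7.15 and 1.01 normalised reads, and controls 1, 2 and 3 had 7.85, 11.6 and 114. Controls 1 and 2 lay inside the knockout range, and only control 3 stood above it. The means were 7.96 ± 7.39 and 44.7 ± 60.5 (SD, n = 3 each). The ratio of means was 5.61 with all controls and 1.22 without control 3. In the authors' deposited table the log2 fold change was -2.49 with an adjusted p of 1.00.

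Fhl2 encodes a LIM-only cofactor whose transcription responds to SRF. None of the knockout samples had a read of Fhl2, and there were 1, 7 and 80 reads in controls 1, 2 and 3, or 0.981, 6.79 and 78.3 normalised reads. The groups did not overlap, by 1 read in control 1. Against a floor of 3 reads in each knockout library, the knockout mean was at least 9.51-fold lower than the control mean of 28.7 ± 43.0 (SD, n = 3). This bound was at least 1.29-fold without control 3, and it covers counting error only. No fitted fold change is given for Fhl2, since one against a group at 0 is no bound.

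Acta2 encodes smooth muscle α-actin, the actin of contractile mural cells and myofibroblasts. It had 25.6, 4.08 and 26.3 normalised reads in knockouts 1, 2 and 3 and 26.5, 22.3 and 189 in controls 1, 2 and 3. Control 1 was 1 read above knockouts 1 and 3, and control 2 was below both. Apart from control 3, knockout 2 was the sample that stood away, with 4 reads. The means were 18.6 ± 12.6 and 79.2 ± 94.97 (SD, n = 3 each), and their ratio of 4.25 became 1.31 without control 3. The authors' deposited table gave a log2 fold change of -2.09 (adjusted p = 0.959).

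Myl9 encodes the regulatory light chain of smooth muscle and non-muscle myosin II, whose phosphorylation drives contraction. It had 1 read in all knockout samples together, in knockout 2, and 1, 2 and 68 reads in controls 1, 2 and 3. Control 3 thus held 95.8% of the control total in normalised reads, the largest such share among the 8 genes. The ratio of control to knockout reads per size factor was 69.0, with a 95% exact interval of 11.99 to 2762 that covers counting error only, and without control 3 it was 4.37 (0.351 to 229). The authors' deposited adjusted p was 0.282.

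Cttn encodes cortactin, which binds the Arp2/3 complex and stabilises branched actin at the cell cortex. It had 4.92, 11.2 and 3.04 normalised reads in knockouts 1, 2 and 3 and 10.8, 70.8 and 111 in controls 1, 2 and 3. Control 1 lay just below knockout 2, with 11 reads in each, and controls 2 and 3 stood far above every other sample. The means were 6.39 ± 4.29 and 64.1 ± 50.2 (SD, n = 3 each), a 10.02-fold difference. Cttn fell by 3.33 on the log2 scale in the authors' deposited table, with an adjusted p of 0.0293 over 19107 genes. It was the 1 gene of the 8 to pass 0.05 there, where 3.00% of the 466 listed genes passed, all lower. The ratio of means was 6.38 without control 3 and 9.49 without control 2, and control 1 alone was 1.69 times the knockout mean.

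Myh14 encodes the heavy chain of non-muscle myosin IIC, a motor of the actin cortex. It had 4.92, 5.11 and 4.05 normalised reads in knockouts 1, 2 and 3 and 20.6, 56.3 and 25.4 in controls 1, 2 and 3. Myh14 was the most even of the 8 genes: the knockout samples differed by 1 read at most, the highest control was 2.73 times the lowest, and every control lay above every knockout sample. The means were 4.69 ± 0.564 and 34.1 ± 19.3 (SD, n = 3 each), a 7.27-fold difference, and the ratio was 4.91 without control 2, its highest sample, and 8.19 without control 3. In the authors' deposited table the log2 fold change was -2.86 and the adjusted p was 0.0719. Control 1 alone was 4.39 times the knockout mean for Myh14, against 0.794 for Yap1, 0.986 for Cyr61 and 1.24 for Tead1.

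A limma fit of log2(value + 1) over all 466 genes called none of the set (0 of 8) at the threshold of 0.05 on the adjusted p, as it called 0% of the table, and 4 of the 8 had an unadjusted p under 0.05 (Tead1, Fhl2, Cttn and Myh14), where 52.6% of the table did. The smallest adjusted p of the 8 was that of Myh14, at 0.0533, with a log2 fold change of -2.50 (95% interval -4.09 to -0.90). For Cttn the limma log2 fold change was -2.78 (-4.91 to -0.65, adjusted p = 0.0578) and for Tead1 -2.83 (-5.32 to -0.35, adjusted p = 0.0749). The limma intervals of Yap1 (-4.11 to 0.27), Cyr61 (-4.42 to 0.72), Acta2 (-3.95 to 0.59) and Myl9 (-5.33 to 0.26) included 0. Their limma adjusted p were 0.118, 0.162, 0.157 and 0.110. edgeR on the recovered reads also called 0 of the 8 and 0% of the table, with 5 of the 8 and 52.8% of the table at an unadjusted p under 0.05. DESeq2 on the same reads called 4 of the 8 (Cttn, Myh14, Myl9 and Fhl2) and 12.7% of the table as lower. It gave an adjusted p to all 8 but not to 199 of the 466 genes. The 12.7% thus understates the share among genes that could be called. All of these fits were made on, and adjusted over, 466 genes already selected on the same samples. Their calls, unadjusted p and intervals are therefore no independent support for a difference. Their adjusted p are not comparable with the authors', which run over 19107 genes. Over the 8 genes, limma's median log2 fold change came to -2.52, beside -1.99 over all 466 genes and -2.11 over the 410 lower ones, and it was also -2.52 with Fhl2 set at its bound. The groups did not overlap for Fhl2 and Myh14, 2 of the 8. Groups that did not overlap, with the knockout lower, were found for 45.3% of the table and 51.5% of the 410 lower genes. For both Fhl2 and Myh14 the exact two-sided permutation p was 0.1, and no smaller p can be reached with 3 samples a group.

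**Figure D2:**
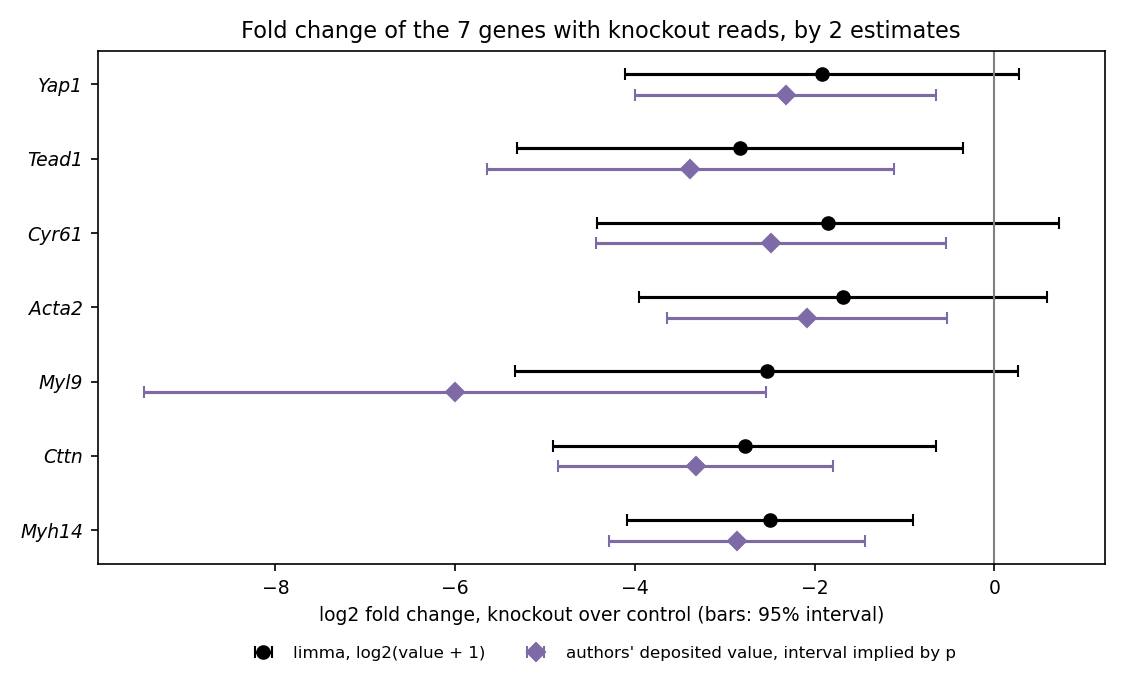
Log2 fold change of knockout over control for each gene except Fhl2, which had no knockout reads, from limma on log2(value + 1) with its 95% interval (black) and from the authors' deposited table with the 95% interval that its p implies if it came from a two-sided Wald test (purple). The 2 estimates are -2.50 and -2.86 for Myh14 and lie farthest apart for Myl9, which had 1 knockout read. The limma intervals of Yap1, Cyr61, Acta2 and Myl9 cross 0. Every listed gene had an authors' p under 0.05, so the purple intervals exclude 0 by selection and are no second support.

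Leaving out control 1 raised the number of limma calls from 0 to 5 of the 8 (Cttn, Myh14, Tead1, Yap1 and Fhl2), while 39.5% of the table was then called as lower. Without control 3 limma called 0 of the 8 and 6.87% of the table as lower, and the log2 fold change was -0.70 for Cyr61, -0.71 for Acta2 and -0.93 for Myl9. A pseudocount of 0.5 in place of 1 gave 2 calls among the 8 (Myh14 and Fhl2) and 22.7% of the table as lower. With control 1 as the only control, limma's median over the 8 came to -0.77, the log2 fold change of Yap1 was 0.054 and that of Myh14 was -1.93. In that fit the spread comes from the knockout samples alone, and control 1 is assumed to vary like them, so its calls (Fhl2, and 11.6% of the table as lower) carry no weight. Myh14 kept the narrowest range of the 8 over all alternatives tried, from -2.86 to -1.93. Single knockout samples also moved ratios of means. Without knockout 2 the ratio was 50.2 for Tead1, 9.32 for Yap1 and 16.1 for Cttn. Without knockout 1 it was 10.9 for Cyr61, and without control 2 it was 6.81 for Tead1.

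**Figure D3:**
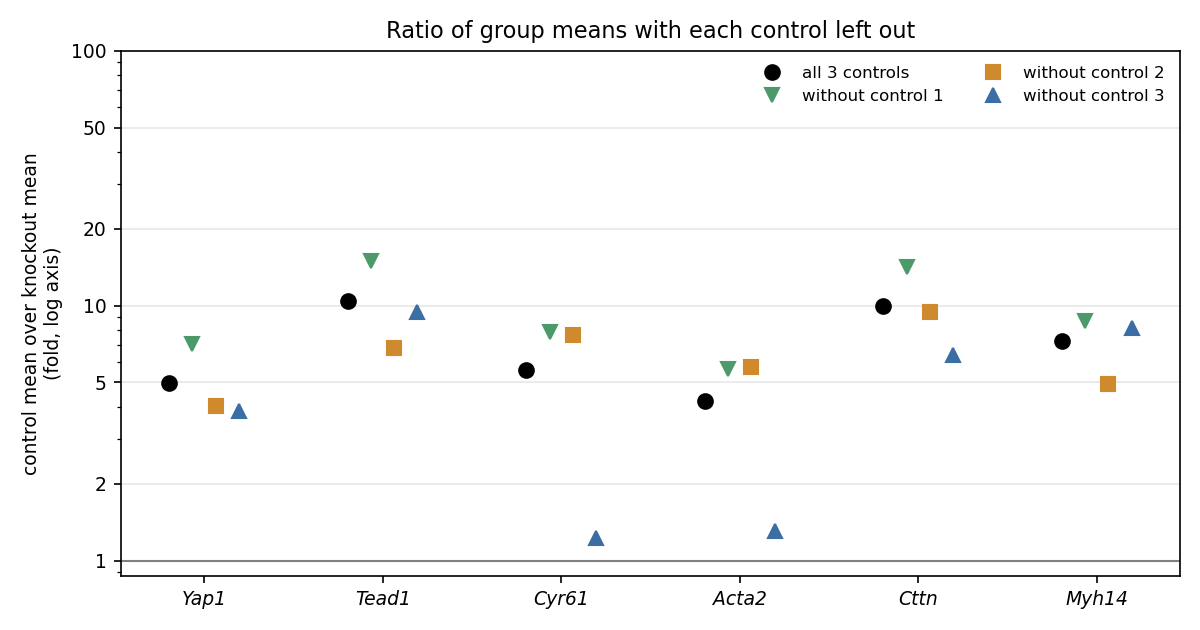
Ratio of the control mean to the knockout mean on a log axis, with all 3 controls and with each control left out, for the 6 genes with more than 3 knockout reads. Without control 3 the ratio comes down to 1.22 for Cyr61 and 1.31 for Acta2, and stays at 3.86 for Yap1, 9.42 for Tead1, 6.38 for Cttn and 8.19 for Myh14.

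The 8 genes fell into different patterns across the libraries when each was expressed as shares of its own sum over the 6 samples. Fhl2 and Myl9 were the closest pair, with 5.14% of their reads differing in library, and had 91.0% and 94.4% of their reads in control 3. Cyr61 and Acta2 followed (12.6% apart), with 72.5% and 64.3% in control 3 and much of the rest spread over the knockout samples. Yap1 lay 12.7% from Cttn and 12.9% from Tead1, with 40.4% of its reads in control 3 and 38.5% in control 2. Myl9 and Myh14 were the pair farthest apart (72.5%). The transcripts of Yap1 and of the YAP target Cyr61 were 39.0% apart: controls 2 and 3 had 51.4 and 53.8 normalised reads of Yap1 but 11.6 and 114 of Cyr61. Transcript levels do not measure the activity of the YAP protein, which was not tested.

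Compared per kilobase of the deposited gene length, the control means were 44.5 normalised reads per kb for Acta2, 22.1 for Cyr61, 19.9 for Myl9, 15.3 for Cttn, 15.1 for Fhl2, 4.69 for Myh14, 4.001 for Yap1 and 1.82 for Tead1. The SDs between controls were 53.3, 29.97, 32.3, 11.98, 22.7, 2.66, 2.92 and 1.46 in the same order, so no neighbours in this order differed beyond their spread. In control 3 the level per kb was highest for Acta2 (106), then Myl9 (57.3), Cyr61 (56.7), Fhl2 (41.3) and Cttn (26.4). In control 2 the level per kb was highest for Cttn (16.9), then Acta2 (12.5), Myh14 (7.73), Cyr61 (5.76) and Yap1 (5.55), and Myl9 was lowest (1.67). In the knockout Acta2 was the highest in level per kb (10.5 ± 7.09 normalised reads per kb, SD, n = 3), and Cyr61 had 3.94 ± 3.66, Cttn 1.53 ± 1.02 and Yap1 0.801 ± 0.652.

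The other genes of these pathways were few in the table. Of 29 genes of the Hippo pathway with YAP, TAZ and TEAD, 4 were listed, all with a lower mean in the knockout: Yap1, Tead1, the TEAD cofactor gene Vgll3 and the atypical cadherin gene Fat4. Vgll3 had 0 normalised reads in every knockout sample and 2.94, 3.88 and 45.0 in controls 1, 2 and 3. Fat4 also had 0 in every knockout sample, and 0.981, 3.88 and 12.7 in controls. TAZ (Wwtr1), the kinases Lats1 and Lats2 and the other TEAD genes were not in the table and were not analysed here.

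Of 26 targets of YAP, TAZ and TEAD, 3 were listed and lower, with 0 past the authors' adjusted p. They were Cyr61, Arhgef17 and Myof, which encodes the membrane repair protein myoferlin. Arhgef17 had 12.8, 17.4 and 6.07 normalised reads in knockouts and 11.8, 47.5 and 58.7 in controls, and so shared the high controls 2 and 3 with Yap1. Myof was highest in control 2, at 66.9, with 44.0 in control 3 and 10.8 in control 1. Ctgf, Ankrd1 and Axl were not in the table.

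Among 30 genes of SRF and MRTF factors and their targets, 4 were listed, all lower and all highest in control 3. They were Fhl2, Acta2, the Fhl2 relative Fhl1 and the enteric smooth muscle actin gene Actg2. Fhl1 had 1.97, 9.19 and 0 normalised reads in knockouts and 5.89, 21.3 and 28.4 in controls. Actg2 had 0 reads in every knockout sample and 1.96, 2.91 and 11.7 normalised reads in controls. Of 28 actomyosin genes, 5 were listed and lower, which are Myh14, Myl9, Acta2, the actin and myosin binding caldesmon gene Cald1 and Limch1. Cald1 stood at 4.92, 1.02 and 3.04 normalised reads in knockouts and 3.92, 36.9 and 188 in controls, so like Myl9 it had most of its reads in control 3. Limch1, which encodes an activator of non-muscle myosin, had instead 13.7, 16.5 and 4.89 in controls 1, 2 and 3.

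Cttn and Gsn were the 2 listed genes among 32 of cortical and branched actin, and Cttn alone passed the authors' adjusted p. Gsn, which encodes the filament-severing protein gelsolin, had 161 to 295 normalised reads in knockouts and 225, 430 and 834 in controls. Of 28 focal adhesion and integrin genes, Parva, Bcar1 and Fermt2 were listed as lower. Parva, the gene of the integrin-linked kinase partner parvin, had 8.85, 11.2 and 4.05 normalised reads in knockouts and 10.8, 99.9 and 77.3 in controls, and the authors' deposited table gave it an adjusted p of 0.0679. Of 17 genes of mechanosensitive channels, 0 were in the table. Every listed gene of these lists had been selected as differing on the same samples, so the counts give no independent direction.

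Among the 235 other listed genes with a mean of at least 10 normalised reads, those closest to each gene in library shares came from several classes. The nearest to Cttn was Prelp, a matrix proteoglycan gene (4.08% apart), and the nearest to Myh14 was Steap2, a metalloreductase gene (4.35%). Igfbp7, which encodes a secreted protein of vessels, was nearest to Fhl2 (2.68%), with 4.91, 34.9 and 385 normalised reads in controls. The nearest to Cyr61 was the membrane protein gene Gas1 (6.54%), and the nearest to Acta2 was Ehd2, a caveola gene (9.45%). Tead1 was closest to the globin gene Hbb-bs (6.03%), whose reads are uncertain because of near-identical copies, and then to Parva (6.58%). Yap1 was closest to the malic enzyme gene Me1 (7.90%), and Myl9 to Fhl2. The median distance of all compared genes ran from 29.8% for Myh14 to 69.0% for Myl9. This likeness rests on 6 samples and describes which libraries held the reads.

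Marker genes of cells other than microglia were also listed, and their libraries differed by cell type. Each had been selected as differing between the groups on these same samples. The lower knockout sums below were thus favoured by the selection and give no independent direction. Markers that were not listed are not in the sums. Of 18 fibroblast or meningeal markers, 7 were in the table, all lower, among them Igfbp2, Apod and Ptgds. Their summed level was 26.3 to 79.6 normalised reads in knockouts and 157, 625 and 641 in controls 1, 2 and 3. Listed neuron markers (8 of 18, with Snap25, Syt1 and Tubb3) summed to 16.2 to 88.8 in knockouts and 89.3, 210 and 841 in controls. Astrocyte markers (3 of 16: Gja1, Sox9 and Htra1) summed to 3.04 to 22.5 and to 10.8, 68.9 and 143. Choroid plexus or ependymal markers (8 of 16, with Ttr, Aqp1 and Kcnj13) summed to 594 to 2046 in knockouts and to 3505, 19288 and 362 in controls 1, 2 and 3. Without Ttr, which makes up most of it, the choroid plexus sum was 31.4 to 90.4 in knockouts and 135, 717 and 96.9 in controls 1, 2 and 3. Without Thy1, a neuron marker named after its values were seen, the neuron sum was 15.2 to 66.4 in knockouts and 71.6, 168 and 299 in controls. Control 3, where Cyr61, Fhl2, Acta2 and Myl9 were highest, thus had the highest sums of the neuron and astrocyte markers. It also had that of the fibroblast markers, by little over control 2, while control 2 had the highest choroid plexus and endothelial sums. Single markers differed from their sums. Controls 2 and 3 had 9.70 and 87.1 normalised reads of Htra1 but 33.0 and 3.91 of Sox9. Of the 7 fibroblast markers, 5 were highest in control 3 and 2 in control 2. Those 2 were Igfbp2 (364 in control 2 and 29.4 in control 3) and Ptgds (176 and 31.3).

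Of 16 mural cell markers, such as Myh11, Tagln and Rgs5, 0 were in the table, so their level beside that of Acta2 and Myl9 was not analysed here. Endothelial markers were listed for 2 of 16 (Pltp and Spock2, 48.6 to 70.8 in knockouts and 89.3, 236 and 118 in controls), erythroid markers for 2 of 6 (0 to 28.6 and 28.5, 176 and 268) and oligodendrocyte markers for 0 of 15. Apod and Hba-a1 had no reads in knockouts 1 and 3. The part of these cells in the levels of Yap1, Tead1, Cyr61, Fhl2, Acta2, Myl9, Cttn and Myh14 was not tested. In such bulk samples, fewer cells of a type and less RNA per cell cannot be told apart.

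**Figure D4:**
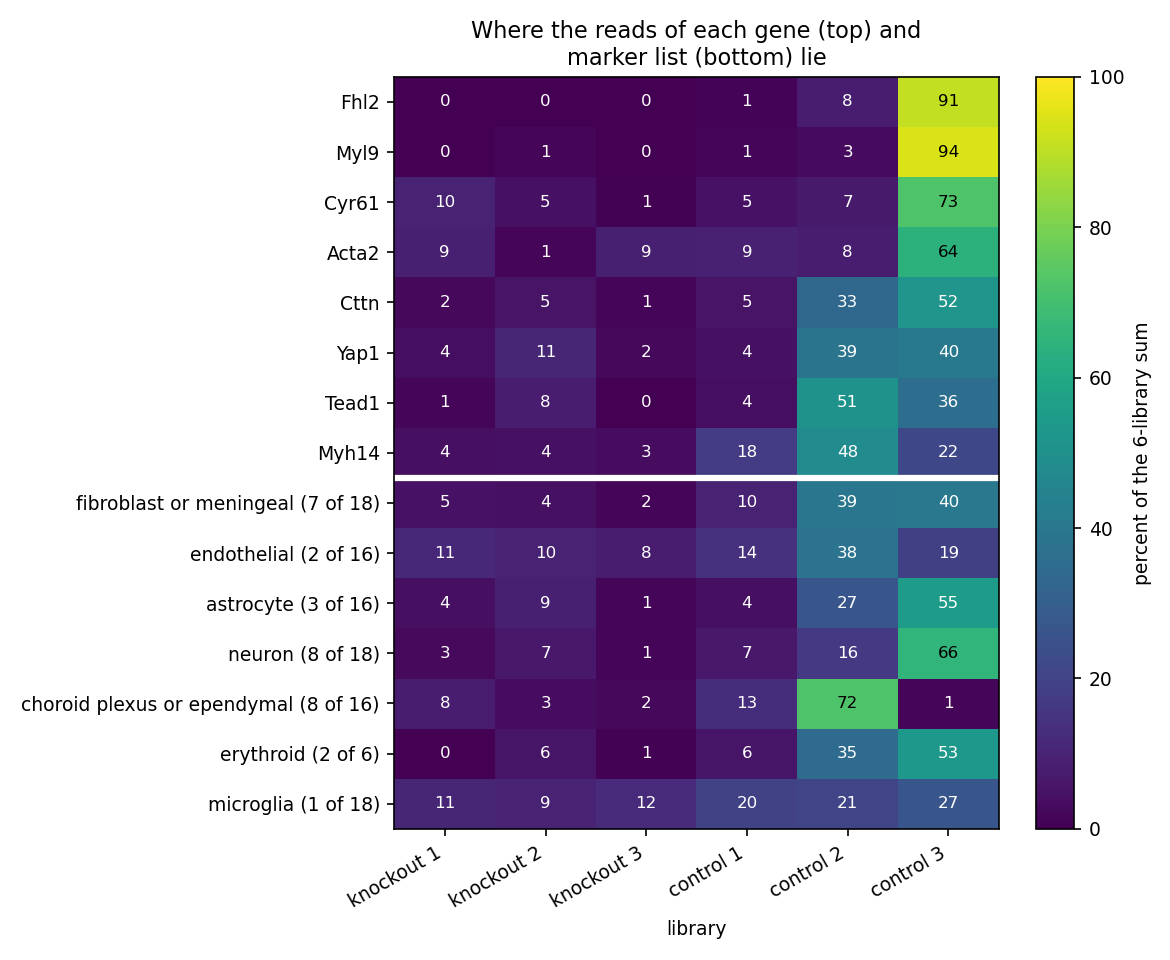
Percent of the 6-library sum of normalised reads that lay in each library, for the 8 genes (top) and for the summed listed markers of each cell type list with the number listed (bottom). Fhl2, Myl9, Cyr61 and Acta2 have 91.0%, 94.4%, 72.5% and 64.3% in control 3, whereas Tead1 and Myh14 have 51.4% and 48.3% in control 2.

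Beside the rest of the table, control 1 reached above all knockout samples for 3 of the 8 genes (Fhl2, Acta2 and Myh14), or 37.5%, and for 67.1% of the 410 lower genes. For control 2 these shares were 75.0% and 89.5%, and for control 3 100% and 88.0%. Control 3 was the highest library for 6 of the 8 genes, where it was for 48.1% of the whole table and 54.6% of the 410 lower genes. The highest control was a median of 12.2 times the lowest for the 8 genes and 5.601 times for the 367 lower genes with reads in every control. These are descriptions over few genes, and no difference between the 8 genes and the rest of the table was tested.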

How the data were processed

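The 6 samples were grouped by their titles and matched to the columns of the deposited table by the column names in their descriptions. The submitters' processing notes name RSEM 1.2.30, HISAT2, cutadapt 1.11, R 3.6.1 and DESeq2 as tools and GRCm38 as the build, without their order. The deposited values are a normalised read count per gene and sample, a signal that is never negative, made by the authors. 100% of them were whole multiples of the value of 1 read in their library (tolerance 1e-06), so reads were recovered. The log2 fold change, p-value and adjusted p-value in the deposited table are the authors' own, and the test behind them was not given there. Reads in the listed genes ranged from 49643 to 180760 per library, which is not a depth, and no interval needing depth was computed. No rescaling was tried, because the table holds genes selected on this contrast.

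limma 3.58.1 (R 4.3.3, mean-variance trend) was fitted to log2(value + 1) of all 466 genes with Benjamini-Hochberg adjustment, since the table holds no raw counts. edgeR 4.0.16 (quasi-likelihood) and DESeq2 1.42.0 on the recovered reads, other pseudocounts, a filter on means under 10, a replicate block and left-out samples were alternatives, and DESeq2 gave no adjusted p for 199 genes. All 3 tests were tested on simulated data. The genes named were the 8, the listed genes of 7 pathway lists, up to 3 per list for 9 marker lists, the nearest profiles, and Thy1. These genes, lists and tests were chosen with earlier results of these data known. Promoter sequences are from RefSeq and gene spans from the deposited table.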

Additional observations from a re-analysis of the deposited data

How the results depend on the processing

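All 8 genes kept a lower fitted level in the knockout under 13 of the 14 alternatives. With control 1 as the only control, Yap1 turned to a log2 fold change of 0.054. Limma without a mean-variance trend, the filter on low means and the replicate block cannot change the fold change of a gene. A difference between the group means was also a condition for being listed, so this count is no independent support for the direction. The number of the 8 called at an adjusted p of 0.05 was 0 with limma and 2 (Myh14 and Fhl2) with a pseudocount of 0.5, 4 with DESeq2 and 1 with control 1 alone. That last call, Fhl2, rests on 1 read in control 1 against none in the knockout, in a fit whose spread comes from the knockout samples alone. With single samples left out the number ranged from 0 to 5, the 5 being without control 1. All these numbers use adjusted p over the 466 selected genes, or the part of them fitted. They cannot be set beside the authors' adjusted p over 19107 genes. The median log2 fold change of the 8 ranged from -3.19 to -1.69 with single samples left out and was -0.77 with control 1 alone. Over the whole table, limma calls went from 0 to 120 with a pseudocount of 0.5, 196 without control 1, 36 without control 3, 54 with control 1 alone, 4 with the replicate block and 1 with the filter on low means, and DESeq2 made 61 calls among the genes to which it gave an adjusted p. The replicate numbers share no stated litter or day. The deviations of same-numbered samples from their group means correlated at -0.04, -0.04 and 0.07 over 466 genes, and those of differently numbered samples at -0.19 to 0.27. Such few correlations over selected genes cannot show whether same-numbered samples shared a litter or day. With the replicate block limma called 0 of the 8. Their median, -2.52, cannot move under a block in this balanced design. Knockouts 1 to 3 did not each correlate best with the control of their own number. Low read numbers limit these genes: Acta2 had 56 reads in the knockout samples together, and the other 7 had 0 to 24.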
